A study of Mus musculus with 3 samples.

Results

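The transcripts examined here encode the peptides with which inhibitory motor neurons of the gut signal beside nitric oxide, and the receptors of 2 of them. The 8 genes were chosen by symbol, not by any measured value, and are 8 of the 33353 genes listed: Vip, Gal, Npy, Cartpt and Adcyap1, which encode peptide precursors, and Vipr1, Vipr2 and Adcyap1r1, which encode receptors for vasoactive intestinal peptide (VIP) and for pituitary adenylate cyclase-activating polypeptide (PACAP). Single-cell RNA sequencing had been carried out on 3 individual mice at postnatal day 14, labelled as strain C57BL/6 (the methods name parent lines of which some are of mixed background), all of the genotype Ednrb-KO (Ednrb-/-), a model of Hirschsprung disease in which the distal bowel has no enteric ganglia. No wild-type sample was analysed here, so every comparison is between classes of cells within these 3 mice. All mice also carried Wnt1-Cre and a tdTomato reporter, which labels cells of neural crest origin, and tdTomato-positive cells were sorted from the longitudinal muscle and myenteric plexus of the whole small intestine, the part of the bowel that keeps its ganglia.

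The study kept 2060 cells as neurons, 354 from mouse 1, 1050 from mouse 2 and 656 from mouse 3. Mouse 1 was sequenced less deeply, with a median of 3735 unique molecular identifiers (UMIs, each standing for 1 captured transcript) per cell against 9600 and 9579 in mice 2 and 3, and 4 cells shared a barcode with a cell of another mouse. Ednrb UMIs were found in 151, 723 and 386 cells of mice 1, 2 and 3. Which part of the transcript these UMIs came from is not given in the deposited values, so they do not check the genotype label. Levels are UMIs of a gene per 10000 UMIs, summed over the cells of a class in 1 mouse, and errors are the SD over the 3 mice.

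Enteric inhibitory motor neurons relax gut muscle and, in mouse, usually make nitric oxide from neuronal nitric oxide synthase (Nos1) together with VIP, while excitatory motor neurons make acetylcholine with choline acetyltransferase (Chat). VIP and PACAP are related peptides that act on receptors coupled to cyclic AMP: PACAP prefers the receptor of Adcyap1r1, and both bind those of Vipr1 and Vipr2. Galanin (Gal), neuropeptide Y (Npy) and the CART peptide (Cartpt) are unrelated to VIP in sequence and act through receptors of other families or, for CART, ones that are less well known. The transcription factor genes Etv1 and Bnc2 mark the main separate branches of myenteric neurons.

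The DNA just before the start of transcription is shown for the 5 peptide genes. A cyclic AMP response element, with its core TGACG, is a known feature of neuropeptide genes, and transcripts of Vip, Gal, Npy and Cartpt were found together in some cells. The sequences are from RefSeq on GRCm38.p6, where all 8 genes had a promoter window of 250 bases before and 50 bases after the start, and Adcyap1 had 2 starts. Each is printed 5′ to 3′ on the strand of its gene, with the core, on either strand, in capitals. For Vip (chr10:5639068-5639217, plus strand), Gal (chr19:3414545-3414694, minus strand), Npy (chr6:49822560-49822709, plus strand) and the first start of Adcyap1 (chr17:93198867-93199016, plus strand) these are the 150 bases before the start, and for Cartpt (chr13:99900778-99900807, minus strand) the 30 bases around the core.
Vip: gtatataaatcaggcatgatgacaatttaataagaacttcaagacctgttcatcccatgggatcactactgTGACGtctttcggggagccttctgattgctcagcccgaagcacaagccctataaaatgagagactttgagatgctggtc
Gal: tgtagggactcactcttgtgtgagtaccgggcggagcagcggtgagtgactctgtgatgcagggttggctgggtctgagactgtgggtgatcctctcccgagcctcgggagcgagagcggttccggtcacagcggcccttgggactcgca
Npy: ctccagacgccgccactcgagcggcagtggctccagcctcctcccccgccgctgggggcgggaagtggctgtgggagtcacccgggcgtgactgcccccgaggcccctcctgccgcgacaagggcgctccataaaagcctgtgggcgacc
Adcyap1: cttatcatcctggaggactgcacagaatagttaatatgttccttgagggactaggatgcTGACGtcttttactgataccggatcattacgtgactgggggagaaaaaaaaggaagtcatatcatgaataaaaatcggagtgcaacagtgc
Cartpt: cccggcgggcatTGACGTCAaacggcagcg

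Counted from the start, the core begins at -79 in Vip, at -91 in Adcyap1 and at -112 in Cartpt, where it forms the full palindrome TGACGTCA. Gal holds the core only after its start, beginning at base 20, and the window of Npy does not hold these letters. The core was found on either strand in 20.8% of all 32851 promoter windows and the palindrome in 1.79%, so the core is a common sequence, and a match is a description of the letters and not of a site in use.

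Cells were placed by their own UMIs of marker genes. Leaving out 136 cells with an Acta2 value of at least 3 on the deposited scale (the natural log of 1 plus UMIs per 10000), 902 cells held Nos1 and no Chat UMI (110, 504 and 288 in mice 1 to 3), 273 held Chat and no Nos1 UMI (15, 148 and 110), 101 held both and 648 neither. Nos1-only and Chat-only cells of a mouse were of similar depth, with medians of 3859, 10385 and 9628 UMIs against 3405, 10219 and 10261. Summed neuron markers, a list of 10 genes, came to 72.2 to 92.8 UMIs per 10000 in Nos1-only and 67.8 to 101 in Chat-only cells, 10 glia markers to 11.9 to 14.7 against 6.11 to 11.6 and 10 smooth muscle markers to 8.55 to 12.1 against 4.29 to 9.86. None of these genes was at 0 in either class. Fibroblast markers came to 2.15 to 7.48 against 1.81 to 3.66, and markers of interstitial, immune, endothelial and epithelial cells to less than 1 UMI per 10000 in both, with Epcam and Cdh1 at 0. The part of these other transcripts in the differences between classes was not tested.

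Acta2, a smooth muscle actin, is not made by neurons, and the Acta2-high cells served to show RNA that does not belong to a cell. They proved to be of more than 1 kind: 62 held Nos1 UMIs and 74 did not, and the neuron markers came to 63.8 to 79.3 UMIs per 10000 in the first against 18.5 to 45.0 in the second. The 41 cells just inside the Acta2 limit (within 0.5) held Nos1 in 61.0% and the 48 just outside it in 58.3%. Background was therefore read from the 74 Acta2-high cells without Nos1, a division made after the values were seen. In these the median cell held 0, 2.38 and 3.93 Gal UMIs per 10000 in mice 1, 2 and 3 and 0, 0.543 and 1.97 Vip UMIs. At least 1 Vip UMI was found in 3 of 58, 4 of 8 and 6 of 8 of them, and at least 1 Gal UMI in 6 of 58, 7 of 8 and 6 of 8. A single Gal, Vip or Cartpt UMI in a cell of mouse 2 or 3 was thus not taken as a sign that the cell made it. The background cells of mice 2 and 3 held neuron markers at 41.0 and 45.0 UMIs per 10000, and 3 of the 8 in mouse 3 held Chat. The part of neuronal RNA of their own in these cells was not tested. Cells with at least 10 UMIs per 10000 were called Vip-rich, Gal-rich or Cartpt-rich, a level also chosen after the values were seen. Even at that level the background was not empty: 4 of its 8 cells in mouse 2 were Cartpt-rich and 3 Gal-rich, against none Vip-rich in any mouse. For Npy, found in 1 of the 74 background cells and in 22 of all 136 Acta2-high cells, any UMI was taken.

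Vip was concentrated in Nos1-only cells. Its level was 4.73, 8.44 and 8.60 UMIs per 10000 in the Nos1-only cells of mice 1, 2 and 3 and 0.159, 0.731 and 0.937 in Chat-only cells, so each mouse had more in the first and the groups did not overlap. Cells with both markers reached 5.99, 3.99 and 2.52 and cells with neither 1.24, 1.65 and 2.42, between the other classes in each mouse but mouse 1, where the 3 cells with both were highest. Vip-rich cells made up 8.18%, 21.6% and 19.8% of Nos1-only cells and 2 of 273 Chat-only cells. The highest Nos1-only cell of mouse 2 held 472 Vip UMIs, or 340 per 10000, and the tenth of cells with the most Vip held 76.3%, 70.8% and 76.5% of all Vip UMIs of their mouse.

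Gal was the most abundant of the peptide transcripts. Nos1-only cells of mice 1, 2 and 3 held 50.2, 105 and 62.6 UMIs per 10000 and Chat-only cells 0.159, 14.4 and 1.34. The higher value of mouse 2 among Chat-only cells came from 1 cell with 1904 Gal UMIs. Without that cell it was 1.64, below the 12.7 of the background cells of mouse 2 without their highest cell. Gal-rich cells were 67.3%, 68.3% and 60.8% of Nos1-only, 33.3%, 31.7% and 33.3% of cells with both markers, 2.72%, 10.2% and 9.50% of cells with neither and 0%, 4.05% and 0.909% of Chat-only cells. Background cells were not uniform either, and 1 of the 8 in mouse 2 reached 2226 Gal UMIs per 10000, which set that group's level at 263, against 12.7 without it.

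Npy was the rarest of the 4 peptides shared by Nos1-only cells and the one with the least background. Its level was 1.49, 1.23 and 0.769 UMIs per 10000 in Nos1-only cells, and in Chat-only cells 0, 0.0134 and 0.0184, from 0, 2 and 2 UMIs. Npy UMIs were found in 36 of 110, 129 of 504 and 67 of 288 Nos1-only cells, or 32.7%, 25.6% and 23.3%, and in 4 of 273 Chat-only cells. Mouse 1, which was sequenced least deeply, had the highest Npy level and mouse 3 the lowest.

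Cartpt was found at 7.21, 18.6 and 11.3 UMIs per 10000 in Nos1-only cells and at 2.55, 2.34 and 0.846 in Chat-only cells. All 16 Cartpt UMIs of Chat-only cells of mouse 1 were in 1 of its 15 cells, and without the highest cell of each mouse the Chat-only levels were 0, 1.36 and 0.550. Cartpt-rich cells were a like share of Nos1-only cells in the 3 mice, 22.7%, 24.6% and 26.4%, against 6.67%, 3.38% and 0.909% of Chat-only cells. In background cells the level was 0.284, 57.1 and 3.39, or 2.40 in mouse 2 without its highest cell. Of them 1.72%, 50% and 0% were Cartpt-rich, and of Acta2-high cells with Nos1 38.1%, 44.4% and 64.3%. The rich level thus does not set Nos1-only cells of mouse 2 apart from background for Cartpt.

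**Figure D1:**
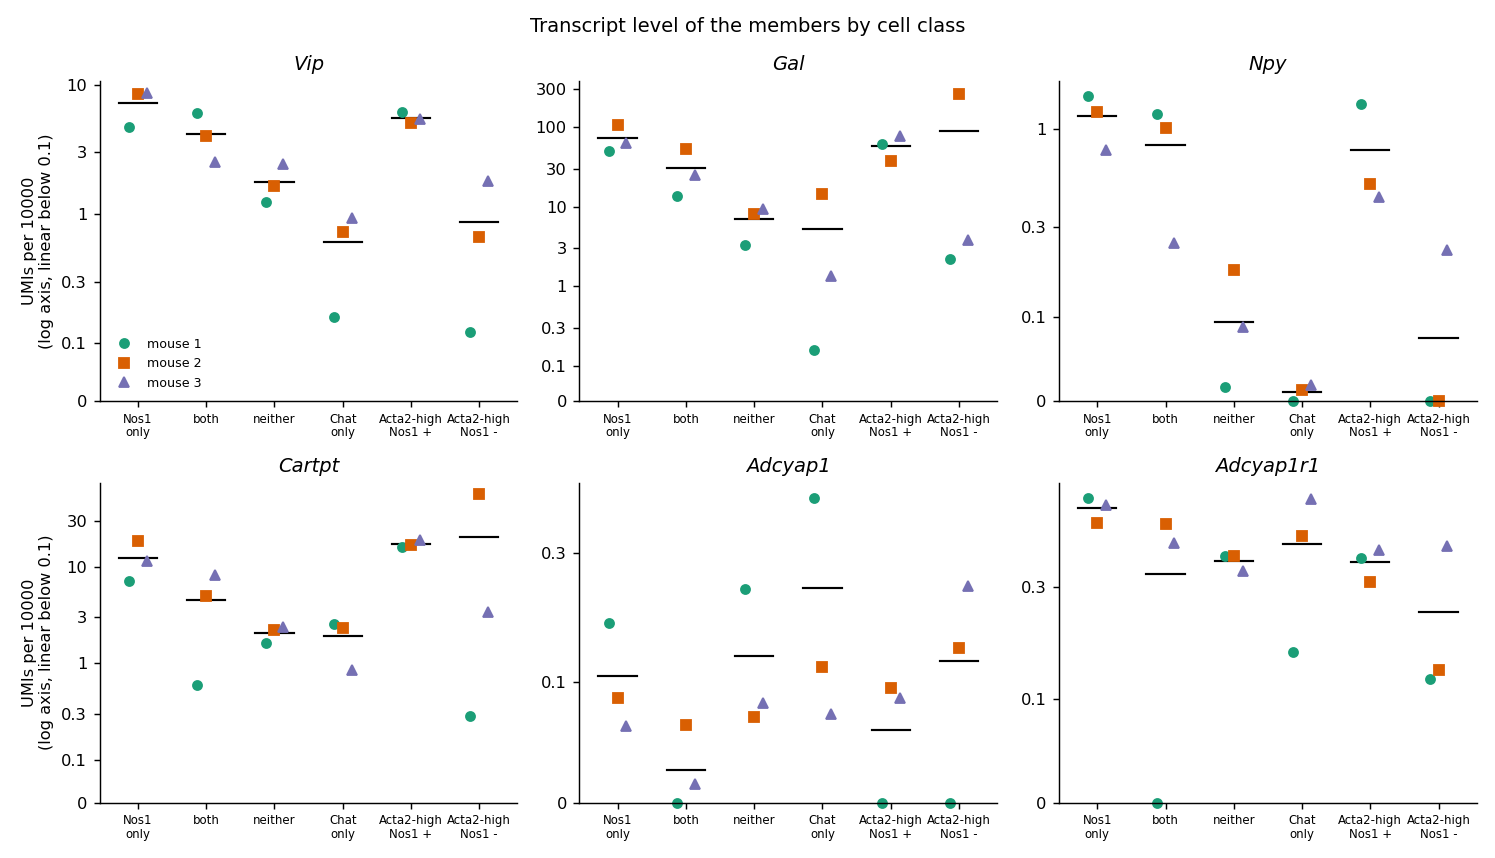
Level of 6 of the genes in UMIs per 10000 (vertical axis, logarithmic above 0.1 and linear below) in classes of cells (horizontal axis); each point is 1 mouse and each bar the mean of the 3. Vip, Gal and Npy are higher in Nos1-only than in Chat-only cells of every mouse, and Gal and Cartpt in Acta2-high cells without Nos1 are high in mouse 2. Mean levels of Vip, Gal, Npy and Cartpt in Acta2-high cells with Nos1 are nearer to those of Nos1-only than of Chat-only cells.

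**Figure D2:**
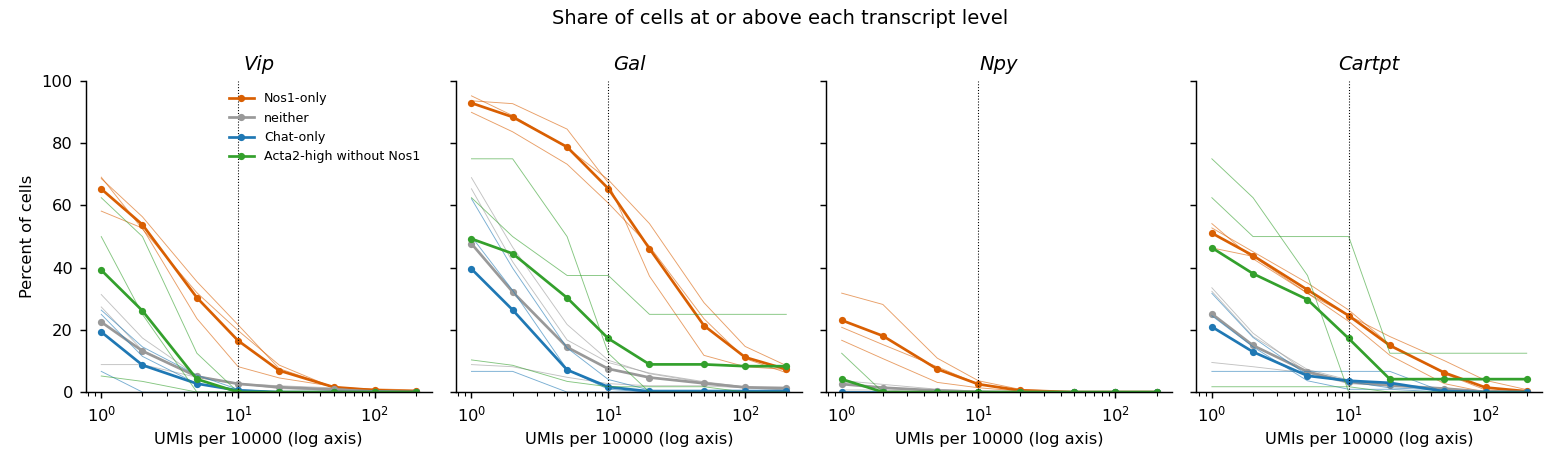
Percent of cells (vertical axis) whose level is at or above the value on the horizontal axis (UMIs per 10000, log axis), for 4 peptides and 4 classes; thick lines are means over 3 mice, thin lines single mice and the dotted line the level of 10. At 10 UMIs per 10000 a mean of 65.4% of Nos1-only and 1.65% of Chat-only cells hold that much Gal.

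The difference between Nos1-only and Chat-only cells was tested across all genes by limma with the mouse as a block, on log2 of the summed level plus 0.1, and p-values are adjusted by the Benjamini-Hochberg method over the 7207 genes with a mean of at least 0.2 UMIs per 10000. Log2 differences are on the scale with this added 0.1, which makes them too small for genes of low level. In all, 0.0833% of the genes tested were called higher in Nos1-only cells and 0.0416% lower, 9 genes together. Of the 8 members, 5 passed the filter on low values and 2 were called, both higher in Nos1-only cells and in 3 of 3 mice: Vip by 3.55 ± 0.25 (SE; limma adjusted p = 0.0344) and Npy by 3.47 ± 0.28 (limma adjusted p = 0.0492). Nos1 and Chat, which define the classes, were 2 of the other 7 genes called. Npy passed the filter only through its Nos1-only sums, and its Chat-only levels lay below the added 0.1. The size of its log2 difference therefore depended on that setting, at 5.27 with 0.02 and 1.68 with 0.5 added. Its call adds little to the levels and counts given above.

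Gal, with a log2 difference of 5.30 ± 0.87 (limma adjusted p = 0.119), and Cartpt, with 2.67 ± 0.41 (limma adjusted p = 0.116), were also higher in 3 of 3 mice but did not pass. Adcyap1r1 had a log2 difference of 0.59 with a 95% interval of -0.39 to 1.56 (limma adjusted p = 0.524) and was higher in 2 of 3 mice, and in Chat-only cells of mouse 1 rested on 1 UMI. Both calls lay near the threshold. With a pseudocount of 0.02 neither was called (limma adjusted p = 0.108 for each), nor without the filter on low values (0.0514 for Vip and 0.111 for Npy). Vip was not called with no replicate block (limma adjusted p = 0.0867), and Npy was not called with doublets removed (0.0563), after thinning cells to 3000 UMIs (0.0940) or with 2 UMIs needed to place a cell (0.0937), all by limma. Chat-only cells of mouse 1, 15 in all, held 16 Chat UMIs and at most 2 each. Nearly all of them fell out under that last rule. After thinning Vip and Gal were the members called. On any 2 of the 3 mice all 4 peptides were called, with 44 to 2085 of all genes called, the most without mouse 1, and such fits have a single residual degree of freedom for a gene, so these calls lean on the spread pooled over genes. Without mouse 1, 13.2% of genes were called higher in Nos1-only cells and 16.1% lower.

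Shares of cells with any UMI were compared after thinning each cell to 3000 UMIs and placing it again by its thinned Nos1 and Chat UMIs, which left out 78, 55 and 45 shallower cells of mice 1, 2 and 3. Vip was then found in 58.8% ± 6.11 of Nos1-only against 18.3% ± 8.89 of Chat-only cells (SD, n = 3 mice), Gal in 91.5% ± 1.26 against 36.2% ± 17.1, Npy in 20.2% ± 6.24 against 3.22% ± 4.48 and Cartpt in 49.8% ± 4.72 against 17.9% ± 9.19. Before thinning the Chat-only shares of mice 2 and 3 were higher, at 41.9% and 43.6% for Vip and 77.0% and 67.3% for Gal, and those of the background cells of the same mice were 50% and 75% for Vip and 87.5% and 75% for Gal, at median depths of 7290 and 4188 UMIs. The Vip and Gal shares of Chat-only cells in these mice thus lie at or below those of background cells. Some Nos1-only shares were near background too, with Vip in 76.0% against 75% in mouse 3 and Cartpt in 65.7% and 63.2% against 62.5% and 75% in mice 2 and 3, so the share of cells with a single UMI does not separate Nos1-only cells from background there.

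Levels were also compared between cells placed by the branch markers. Etv1 without Bnc2 was held by 1029 cells (145, 576 and 308 in mice 1 to 3) and Bnc2 without Etv1 by 319 (19, 178 and 122). Cartpt was at 6.99, 16.1 and 11.0 UMIs per 10000 in Etv1-only cells and at 0, 0.679 and 0.675 in Bnc2-only cells, and Gal at 42.2, 93.5 and 60.6 against 0.119, 1.83 and 3.11. In the same limma fit over 7222 genes, 0.789% were called higher in Etv1-only cells and 0.845% lower. Of the same 5 members that passed the filter, 4 were called, all higher in Etv1-only cells and in 3 of 3 mice: Gal by 5.81 ± 0.59 on the log2 scale (limma adjusted p = 0.0214), Cartpt by 4.79 ± 0.43 (0.016), Vip by 3.77 ± 0.24 (0.00738) and Npy by 2.90 ± 0.29 (0.0188), where the values in brackets are limma adjusted p-values. Npy again passed the filter only through the class where it was high. Its levels in Bnc2-only cells were 0, 0.0649 and 0.0666 UMIs per 10000, below the added 0.1. After thinning Vip, Gal and Cartpt were called and Npy was not, at 1.85 (limma adjusted p = 0.212). The Npy calls by transmitter and by branch were thus both lost after thinning, while the log2 differences stayed above 0, at 2.94 and 1.85. Thinning also removed UMIs, left out shallower cells and placed the others again. The part of each of these was not tested. With a pseudocount of 0.02 or without the filter Vip alone was called, with no replicate block Vip and Npy, and with 2 UMIs to place a cell Gal and Cartpt.

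Adcyap1r1 differed by 0.38 with a 95% interval of -0.68 to 1.45 in that fit (limma adjusted p = 0.682) and was lower in Etv1-only cells once mouse 1 was left out. Of the 1029 Etv1-only cells 741 held Nos1, and of the 319 Bnc2-only cells 160 held Chat and 63 Nos1. The comparisons by transmitter and by branch thus share many of their cells and are not independent.

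**Figure D3:**
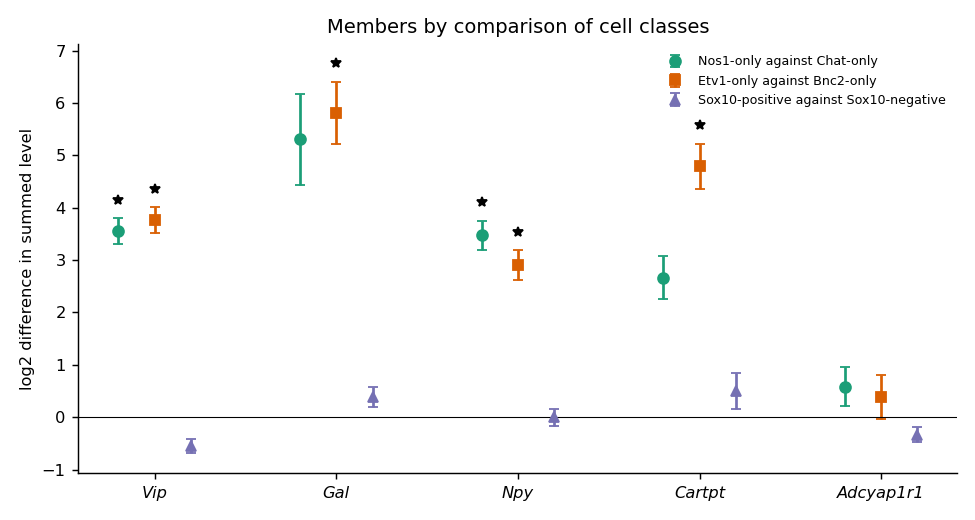
Log2 difference in summed level (vertical axis; points, with bars of 1 SE from the limma fit over 3 mice) for the 5 members that passed the filter in 3 comparisons of cell classes; stars mark an adjusted p under 0.05. Vip and Npy are starred in the comparison by Nos1 and Chat, 4 peptides in that by Etv1 and Bnc2, and none in that by Sox10.

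Adcyap1, which encodes PACAP, had few UMIs and another pattern. It was found in 15, 58 and 33 cells of mice 1, 2 and 3, or 4.24%, 5.52% and 5.03%, with 156 UMIs in all, and did not pass the filter on low values. Its level was 0.165, 0.0864 and 0.0638 UMIs per 10000 in Nos1-only cells and 0.477, 0.114 and 0.0735 in Chat-only cells, where all 3 UMIs of mouse 1 were in 1 cell, so its level was no higher in the Nos1-only class. By branch, 83 of 1029 Etv1-only cells held Adcyap1 against 4 of 319 Bnc2-only cells, with levels of 0.330, 0.119 and 0.120 against 0, 0.0413 and 0.00833. Fitted without the filter this log2 difference was 1.25 ± 0.36 (limma adjusted p = 0.388), higher in 3 of 3 mice and not called. Among cells with each listed marker gene that was found in all 3 mice, the mean Adcyap1 level was highest in the 37 cells with the glutamate transporter Slc17a6 (1.93, 0.478 and 0.126) and in the 143 cells with dopamine beta-hydroxylase, Dbh (1.24, 0.345 and 0.265), both highest in mouse 1, where 9 cells held Slc17a6 and 22 Dbh. The 8 cells with Gad2, none in mouse 1, held 0.442 and 1.43 in mice 2 and 3, and the 17 with Th, the gene of tyrosine hydroxylase, 0.730 and 0.120.

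The receptors were sparse or absent. No Vipr1 UMI was found in any of the 2060 cells, which allows a share of up to 0.146% of cells with a UMI. Vipr2 had 35 UMIs in 28 cells, found in 9 of 273 Chat-only and 7 of 902 Nos1-only cells and in 11 of 319 Bnc2-only and 7 of 1029 Etv1-only cells, and it was called in no fit. Adcyap1r1 was the one receptor with a measurable level, 0.723, 0.567 and 0.677 UMIs per 10000 in Nos1-only cells, 0.159, 0.496 and 0.717 in Chat-only cells and 0.122, 0.133 and 0.452 in the Acta2-high cells without Nos1. The background values rest on 3, 1 and 2 UMIs in mice 1, 2 and 3, too few to set the transmitter classes apart from them.

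The 4 peptides were combined in many ways within Nos1-only cells. Taking Vip, Gal and Cartpt at 10 UMIs per 10000 and Npy at 1 UMI, 238 of the 902 cells were rich in none, 214 in Gal alone, 95 in Gal with Cartpt, 94 in Gal with Npy, 46 in Vip, Gal and Cartpt, 43 in Vip with Gal, 42 in Vip, Gal and Npy, 42 in Gal, Cartpt and Npy and 17 in all 4. Vip without Gal was found in few cells, 14 with Vip alone and 13 with Vip and other peptides, against 148 with Vip and Gal. Exactly 2 peptides were combined in 242 Nos1-only cells and 3 in 134, whereas 2 of 273 Chat-only cells combined 2 and none more. With 1 UMI as the limit for every peptide, 140 Nos1-only cells held all 4 and 1 Chat-only cell did.

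**Figure D4:**
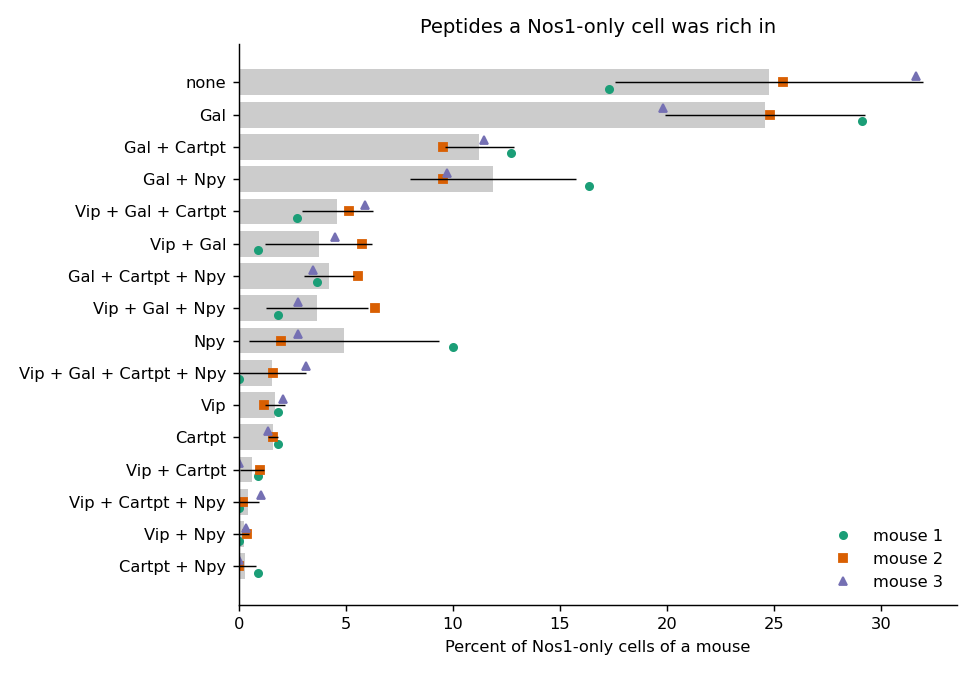
Percent of the Nos1-only cells of a mouse (horizontal axis) rich in each combination of Vip, Gal, Cartpt and Npy (vertical axis); bars are means over 3 mice with lines of 1 SD, and points are mice. The combinations at the top, none and Gal alone, hold 238 and 214 of the 902 cells.

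How often 2 peptides met in a cell was compared with the product of their shares within each mouse, as a description over cells that share libraries. Vip-rich cells that were also Cartpt-rich numbered 73, which was 1.66 times the 43.9 given by the product of the shares. The number was 1.42 times that expected when each cell's chance of being rich was taken to rise with its total UMIs. The same ratio with depth was 1.28 for Vip with Npy, 1.22 for Gal with Cartpt, 1.16 for Vip with Gal and for Gal with Npy, and 0.959 for Cartpt with Npy. Vip, Gal and Cartpt richness is already a level per UMI, and its rise with depth was assumed. Vip-rich cells had median depths of 4120, 10387 and 9999 UMIs in mice 1 to 3, against 3827, 10383 and 9598 in other Nos1-only cells. The ratios with depth are thus no measured correction for depth. Without depth taken into account, mouse 1 showed no excess for Gal with Npy (0.991, from 24 cells), Vip with Gal (0.991, 6 cells), Vip with Npy (0.679, 2 cells) and Cartpt with Npy (0.611, 5 cells). Its ratios were above 1 for Gal with Cartpt (1.25, 21 cells) and Vip with Cartpt (1.96, 4 cells). Cartpt-rich cells were Gal-rich in 87.8% ± 3.48 (SD, n = 3 mice), against 58.0% ± 6.92 of the other Nos1-only cells.

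The 238 Nos1-only cells that were rich in none held less Nos1. Their median Nos1 count was 3, 1 and 1 UMIs in mice 1, 2 and 3, against 4, 8 and 7 in cells rich in at least 1 peptide, and 31.6%, 51.6% and 53.8% of them had a single Nos1 UMI, against 12.1%, 8.24% and 10.7%. Etv1 was found in 84.2%, 61.7% and 63.7% of them against 95.6%, 96.0% and 93.4%. The part of free Nos1 RNA in their placing was not tested.

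Gal differed within the Nos1-only class by Neurod6, a neuronal transcription factor gene. The 75 Nos1-only cells with a Neurod6 UMI (8, 45 and 22) held 204, 446 and 241 Gal UMIs per 10000 in mice 1, 2 and 3, against 35.8, 61.2 and 43.6 in the 827 without one. Every mouse was higher with Neurod6, by 2.61 ± 0.22 on the log2 scale (SD, n = 3; exact permutation test, two-sided, p = 0.25, the smallest that 3 mice allow). Vip went the other way, at 1.68, 4.95 and 4.73 with Neurod6 against 5.02, 8.90 and 9.01 without, lower in 3 of 3 mice by a log2 difference of -1.09 ± 0.38 (same exact test, p = 0.25). Adcyap1 was higher with Neurod6 in 3 of 3 mice, at 0.721, 0.150 and 0.183 against 0.113, 0.0781 and 0.0510, by 1.11 ± 0.75 (same exact test, p = 0.25). Npy, Cartpt and Nos1 itself did not move one way in all mice.

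Cells with a Neurod6 UMI were deeper, with medians of 4735, 12479 and 13111 UMIs against 3688, 9992 and 9410. The median cell held 67.9 Gal UMIs per 10000 at 1 Neurod6 UMI (48 cells), 291 at 2 or more (27 cells) and 17.6 at none. Gad2, which encodes the enzyme that makes GABA, was found in 8 cells, none from mouse 1. All 8 were Gal-rich, with levels of 300.0 and 233 Gal UMIs per 10000 in mice 2 and 3, while none was Cartpt-rich, with 1.10 and 1.02. All 8 were Etv1-only cells and 5 held Neurod6.

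**Figure D5:**
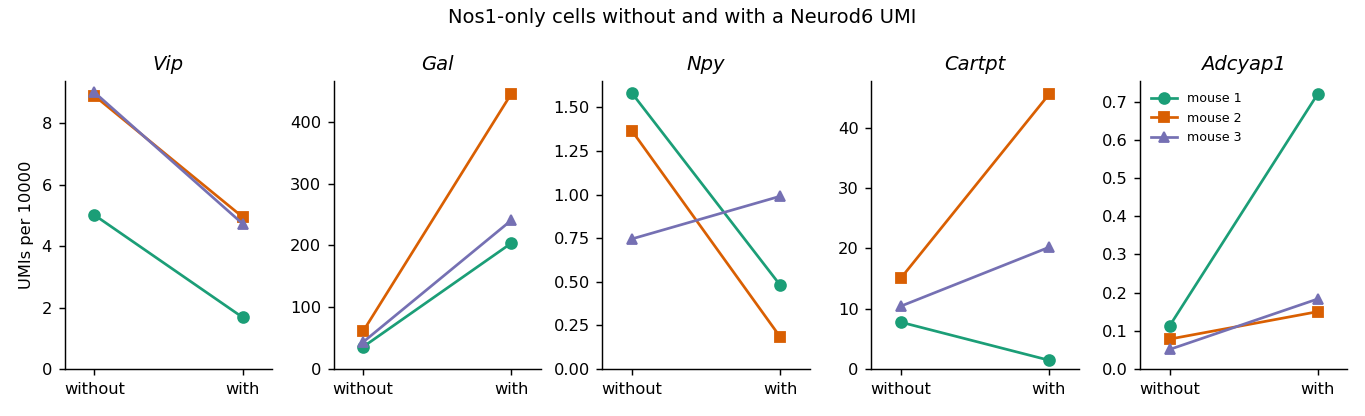
Level in UMIs per 10000 (vertical axes, each from 0) of the 5 peptide transcripts in Nos1-only cells without and with a Neurod6 UMI; lines join the values of 1 mouse. Gal rises from 35.8, 61.2 and 43.6 to 204, 446 and 241 in mice 1, 2 and 3, Vip is lower and Adcyap1 higher with Neurod6 in each, and Npy and Cartpt go different ways in different mice.

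Some peptide-rich cells held no Nos1 UMI. Below the Acta2 limit there were 19 such Vip-rich cells (4, 9 and 6 in mice 1 to 3), 61 Gal-rich and 28 Cartpt-rich cells, against 184, 626 and 237 with Nos1. Of the 19 Vip-rich cells 17 held neither Nos1 nor Chat and 17 held Etv1, and 10 held the vesicular acetylcholine transporter Slc18a3. Adcyap1 was found in 12 of the 19 (3 of 4, 4 of 9 and 5 of 6) and in 25 of the 184 Vip-rich cells with Nos1, or 63.2% against 13.6%. Their Adcyap1 level was 2.72, 1.30 and 1.57 UMIs per 10000, against 0.228, 0.175 and 0.126 with Nos1, higher in 3 of 3 mice. Neurod6 was found in 5 of the 19, Gad2 in 2 and Dbh in 6. Median depth was 3692, 8655 and 11382 UMIs in these cells and 4120, 10288 and 10931 in Vip-rich cells with Nos1. The cells were found by looking at these data, so their values are given with no test.

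There were 25 cells with at least 2 Adcyap1 UMIs, a limit chosen after the values were seen. Of these cells 11 held Nos1, 7 Chat, 17 Vip (1 of 5, 13 of 16 and 3 of 4 in mice 1 to 3), 18 Slc18a3, 23 Etv1 and 23 Cartpt, with 2 holding Npy. They held 2.08, 14.1 and 61.9 Vip UMIs per 10000 and 92.5, 361 and 115 Gal UMIs per 10000 in mice 1, 2 and 3. They were deeper than all cells below the Acta2 limit, with medians of 4504, 12877 and 12690 UMIs against 3727, 9579 and 9659, and the part of depth in these counts was not tested.

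Genes whose values ran most like each peptide over the cells of a mouse were ranked by the mean of the 3 within-mouse Pearson correlations, over 8617 genes found in at least 5% of the cells of each mouse, as a description over cells that share their library and differ in depth. Nos1 and Ass1, which encodes the enzyme that recycles citrulline to arginine, the substrate of nitric oxide synthase, were the first 2 for Gal (0.63 and 0.62), Vip (0.51 and 0.52) and Npy (0.35 and 0.36). Gal was followed by Etv1, Rprml and S100a6, Vip by Etv1, S100a6 and S100a13, and Npy by S100a6, S100a4 and Epha5. The order was different for Cartpt, which ran with Sncg (0.55), Pcbd1 (0.48), Pcsk1n (0.45), AI413582 and S100a13, and for Adcyap1, which ran with Nefl (0.35), Ntng1 (0.35), Nefm (0.32), Serpini1 and Pcp4l1. Nefl and Nefm encode neurofilament subunits, the structural proteins of large axons.

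Of 13 genes that process or release peptides all passed the filter and none was called by limma between Nos1-only and Chat-only cells (6 had an unadjusted p under 0.05), with a median log2 difference of -0.22 against -0.02 over all genes tested. The largest difference was that of Cadps2, a factor for release of dense-core vesicles, at 2.37 ± 0.35 (limma adjusted p = 0.106), higher in 3 of 3 mice. Its means were 0.566 and 0.027 UMIs per 10000, so it passed the filter only through Nos1-only cells. Between Etv1-only and Bnc2-only cells 2 of the 13 were called higher and 3 lower, which are named here after their values were seen: Cadps2 by 2.08 ± 0.31 and Pcsk1n, which encodes an inhibitor of a peptide-cleaving enzyme, by 0.73 ± 0.10 were higher, and Chgb, a protein of the vesicle core, by -1.81 ± 0.14, Pcsk2, a peptide-cleaving enzyme, by -1.09 ± 0.11 and Cadps by -0.87 ± 0.12 lower.

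Of 7 receptor genes of galanin and neuropeptide Y, 2 passed the filter in the first comparison, none was called, and the larger difference was that of Galr1 at -1.27 ± 0.80 (limma adjusted p = 0.516). None of 7 other genes of the VIP and PACAP family passed. Among 16 genes of nitric oxide and cyclic nucleotide signalling, 7 passed and 1 was called, Nos1, which defines the class. Of 12 peptides of excitatory, sensory and interneurons 8 passed and none was called, the largest difference being that of Nmu at -1.90 ± 0.63 (limma adjusted p = 0.332). In the comparison by branch, Grp was called higher in Etv1-only cells by 2.89 ± 0.40 and Tac1 and Sst lower by -2.25 ± 0.32 and -2.72 ± 0.32, named after their values were seen.

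Cells with UMIs of Sox10, a gene of glia and of neural crest progenitors, were compared with cells without. Below the Acta2 limit Sox10 was found in 120, 554 and 351 cells and not in 155, 461 and 283. The summed neuron markers were lower with Sox10, at 57.6 to 62.5 UMIs per 10000 against 75.7 to 105, and 7.54% of the 7211 genes tested were called in either direction. None of the 5 members that passed the filter was called by limma, 2 had an unadjusted p under 0.05, and voom called 1. Vip was at 1.81, 4.39 and 4.60 UMIs per 10000 with Sox10 and 3.45, 6.27 and 5.49 without, lower in 3 of 3 mice by a log2 difference of -0.55 ± 0.14 (limma adjusted p = 0.0629). It was called with voom, after thinning, with 2 UMIs to place a cell, with Acta2-high cells kept and without mouse 1 or mouse 3, at log2 differences of -0.38 to -0.88. Adcyap1r1 was lower in 3 of 3 mice too, at -0.33 ± 0.13 (limma adjusted p = 0.192), while Gal, at 0.38 ± 0.19 (limma adjusted p = 0.283), and Cartpt, at 0.50 ± 0.34 (limma adjusted p = 0.437), were higher in 2 of 3, and Npy was higher in 1. Without mouse 1, 4 of the 5 were called, all but Npy, where 30% of all genes were. Of the lists, 7 of the 13 genes of peptide processing and 3 of the 7 tested peptides of excitatory, sensory and interneurons were called lower with Sox10 and none higher, and none of the 7 tested genes of nitric oxide and cyclic nucleotide signalling was called in either direction.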

How the data were processed

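Per the labels and the study's methods, the authors made 10x Genomics libraries from sorted cells of 3 mice, aligned them to mm10 with Cell Ranger (version not given in the sources used here), filtered cells on genes and mitochondrial share, removed some genes and kept neurons in Seurat. The deposited values are the natural log of 1 plus UMIs per 10000, and 100% of them came out as whole UMIs (relative tolerance 1e-06). Genes not listed held a median of 11.9% to 13.4% of the UMIs of a cell, which the scaling counts.

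Class sums per mouse were fitted with limma 3.58.1 in R 4.3.3 on log2(UMIs per 10000 + 0.1) with the mouse as a block, a trend on mean level, genes at a mean of at least 0.2 and a call at an adjusted p under 0.05. On simulated sums for Nos1-only against Chat-only cells over 7056 genes, 190 of 200 genes changed 4-fold were recovered, with 0 false calls. In these sums the difference between mice was the same in both classes, with 1 fixed spread for every gene added. No single cell could set the level of a class, as happened in the measured sums. The share recovered is therefore not the share that the fit recovers in the measured sums. Scrublet in scanpy 1.11.5 marked 12 cells (0.583%) as doublets, which were kept. Upper limits for a count of 0 cover counting error only. Because both classes of a comparison come from the same animal, the mouse pairs the samples.

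The members, the gene lists and the tests were chosen with earlier results of these data known. The mice are separate animals of 1 condition. With the mouse as a block, limma p-values weigh the class difference within mice against its variation over these 3, a spread moderated over genes. Every member is named. From each list the named genes are those called in the comparison of Nos1-only with Chat-only cells, up to 4, or otherwise the gene with the largest difference.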

Additional observations from a re-analysis of the deposited data

How the results depend on the processing

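Between Nos1-only and Chat-only cells 2 members were called, and 0 with a pseudocount of 0.02, 0 without the filter on low values, 4 with means of the natural-log values, 4 with voom, 1 without doublets, 1 with no replicate block and 4 to 4 leaving out a mouse. Calls over all genes were 9, and 4 with a pseudocount of 0.02, 33 with 0.5, 5 without the filter, 59 with natural-log means, 953 with voom, 14 after thinning, 74 with 2 UMIs to place a cell, 16 with Acta2-high cells kept and 44 to 2085 leaving out a mouse. With 2 UMIs to place a cell, nearly all Chat-only cells of mouse 1 fell out. Between Etv1-only and Bnc2-only cells 4 members were called, and 1 with a pseudocount of 0.02, 1 without the filter, 2 with 2 UMIs, 2 with no replicate block, and 3 after thinning and with natural-log means, where Npy was respectively not called and below the filter. Calls over all genes were 118, and in the order pseudocount 0.02, pseudocount 0.5, no filter, natural-log means, voom, thinning, 2 UMIs, Acta2-high cells kept and no replicate block they were 33, 178, 23, 181, 1201, 46, 7, 36 and 42, with 104 to 2393 leaving out a mouse. By Sox10, 0 members were called, and 1 each with voom, thinning, 2 UMIs and Acta2-high cells kept, and 0 to 4 leaving out a mouse; over all genes there were 544 calls, and 90 without the filter, 976 with voom, 344 after thinning, 4 with no replicate block and 409 to 2115 leaving out a mouse. The cause of these differences was not tested.

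The difference in share of cells between Nos1-only and Chat-only cells was 39.0 percentage points for Vip, and 9.72 above the 95th percentile of Acta2-high cells and 16.0 at 10 UMIs per 10000. For Npy it was 26.1, and 13.5 with 2 UMIs, 13.3 above that percentile, 17.0 after thinning and 2.53 at 10 per 10000, and for Cartpt 27.6, and 8.17 above the percentile. For Gal it was 44.7, and 10.9 above the percentile, 63.8 at 10 per 10000 and 23.5 without mouse 1. Nos1-only cells with all 4 peptides were 13.8%, and 4.69% with 2 UMIs, 6.46% after thinning and 1.57% at the rich level. The level of 10, the division of Acta2-high cells by Nos1 and the removal of the highest cell were chosen after seeing the data.

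Some differences that were not called changed sign. Adcyap1r1 by branch was -0.18 with voom and -0.27 to 0.72 leaving out a mouse, lowest without mouse 1. By Sox10, Npy was -0.0018 with a pseudocount of 0.5, -0.16 with voom, -0.32 after thinning, -0.29 with 2 UMIs, -0.020 without doublets and -0.21 to 0.19 leaving out a mouse, Gal was -0.042 with natural-log means and -0.33 after thinning, and Cartpt was -0.42 after thinning. The share of cells with Adcyap1, Nos1-only minus Chat-only, was -2.24 with 2 UMIs, -2.20 after thinning, -0.225 at 10 per 10000 and -0.382 to 1.87 leaving out a mouse, and that of Adcyap1r1 was -1.93 to 9.21 leaving out a mouse. Fits on 2 mice have a single residual degree of freedom for each gene. Vip, Gal, Npy and Cartpt kept their direction by transmitter and by branch under every alternative run.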
